A study of Homo sapiens with 6 samples.

Results

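The 10 genes described here are MITF and 9 genes of the pigment cell programme, TYR, TYRP1, DCT, PMEL, MLANA, MLPH, RAB27A, MC1R and GPNMB. They were taken from the count table by their symbols, and all 10 are among the 23368 genes counted. The cells were 1205Lu, an established human melanoma line. The SOX10 group received the plasmid pCMV6-SOX10, in which a viral CMV promoter drives SOX10, and the control group received the empty plasmid pCMV6, at 7.8 µg of DNA per flask and with the same transfection reagent. RNA was taken 24 h after this transient transfection, with 3 biological replicates per group. All libraries thus come from 1 cell line that also carries SOX10 of its own, and at 24 h the whole flask was measured, transfected and untransfected cells together. In such bulk RNA, fewer cells that use a gene and less RNA of it per cell cannot be told apart.

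MITF is the transcription factor that sets melanocyte identity. It binds short E-box elements near the starts of genes for pigment enzymes and melanosome proteins, and SOX10 together with PAX3 is known to activate the promoter of its melanocyte form. TYR, TYRP1 and DCT encode the related enzymes of melanin synthesis. PMEL forms the fibrils of the melanosome, MLANA is a small membrane protein of early melanosomes, and GPNMB is a glycoprotein related to PMEL. RAB27A and its adaptor MLPH tether ripe melanosomes to myosin Va, and MC1R is the receptor for melanocortins, which raises cAMP. Melanoma cells differ widely in this programme: some hold it fully, others hold little MITF and carry receptors such as AXL in its place.

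RefSeq windows of 300 bases around annotated gene starts (250 before and 50 after, build GRCh38.p14) were read for the E-box forms CATGTG and CACGTG on both strands, and for the SOX-type words ACAAAG and ACAATG. Of the 10 genes 9 had a window in the table, 17 windows in all. CATGTG was found in 5 of the 17 windows (29.4%), from 5 genes, against 11.1% of all 35116 windows of this length, and CACGTG in 1 window, of MLPH, against 7.26%. The 4 windows with 2 copies of CATGTG belong to TYR, TYRP1, DCT and GPNMB, and they are shown because the first 3 of these genes had almost no reads while GPNMB was the only one of the 10 whose groups did not overlap. The 250 bases before the start are printed 5′ to 3′, with CATGTG, or CACATG where it lies on the other strand, in capitals.
TYR, chr11:89177625-89177874, plus strand: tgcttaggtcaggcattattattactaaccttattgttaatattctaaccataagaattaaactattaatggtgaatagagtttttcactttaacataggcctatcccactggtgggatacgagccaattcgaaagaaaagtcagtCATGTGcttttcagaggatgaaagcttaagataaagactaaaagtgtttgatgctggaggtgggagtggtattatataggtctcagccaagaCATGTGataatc
TYRP1, chr9:12693135-12693384, plus strand: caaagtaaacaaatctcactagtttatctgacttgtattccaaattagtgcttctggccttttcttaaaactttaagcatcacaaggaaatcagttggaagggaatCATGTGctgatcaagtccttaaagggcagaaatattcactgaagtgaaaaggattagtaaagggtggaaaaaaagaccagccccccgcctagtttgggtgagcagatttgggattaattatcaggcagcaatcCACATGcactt
DCT, chr13:94479683-94479932, minus strand: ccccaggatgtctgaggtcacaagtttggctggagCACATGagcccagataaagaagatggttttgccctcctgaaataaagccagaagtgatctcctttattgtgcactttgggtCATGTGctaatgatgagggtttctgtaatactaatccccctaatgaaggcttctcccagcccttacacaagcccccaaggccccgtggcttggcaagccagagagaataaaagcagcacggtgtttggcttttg
GPNMB, chr7:23246525-23246774, plus strand: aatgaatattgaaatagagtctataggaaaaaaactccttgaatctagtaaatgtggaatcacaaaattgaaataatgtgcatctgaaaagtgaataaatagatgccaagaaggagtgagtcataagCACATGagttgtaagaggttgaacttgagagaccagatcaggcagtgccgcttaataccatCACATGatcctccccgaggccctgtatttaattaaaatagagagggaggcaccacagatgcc
The capitals begin 104 and 12 bases before the start of TYR, 144 and 11 before that of TYRP1, 215 and 134 before that of DCT, and 123 and 62 before that of GPNMB. MC1R had 1 copy of CATGTG, 64 bases before its start. MITF has 3 listed starts, and the most downstream of them, that of the melanocyte form, had none of the 4 words in its window. Sequence more than 250 bases before a start was not read. ACAAAG or ACAATG was found in 3 of the 17 windows, against 24.5% of all windows. A match is a string of letters and not a measured binding site.

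Depth limits what can be said of rare genes. The SOX10 libraries held 2544420 to 4167393 gene reads and the control libraries 867917 to 2066520, so that a read was worth 0.240 to 0.395 CPM in the SOX10 libraries and 0.483 to 1.14 CPM in the controls, where CPM is the TMM-scaled count relative to library size. Where a gene had no read, its level may still have reached 3 reads' worth, which is 0.720 to 1.19 CPM in the SOX10 libraries and 1.45 to 3.43 CPM in the controls; such limits cover counting error only. SOX10 replicate 1 and control replicate 3 had 93.5 and 97.0 reads outside genes per 100 assigned reads, against 121 to 135 in the other 4 libraries. SOX10 itself, the transfected gene, had 21.5, 18.6 and 34.3 CPM after pCMV6-SOX10, against 16.4, 20.6 and 21.3 CPM after pCMV6. By edgeR's quasi-likelihood test the log2 fold change of SOX10 was 0.35 (SE 0.27; adjusted p 0.927), so SOX10 reads did not separate the groups and could not serve as a check of the labels. Of 10 markers of the melanocytic and neural crest lineage 9 were tested and 0 called. Their median level in control cells was 96.7 CPM per kilobase, with the calcium-binding protein gene S100B at 313 ± 43.3 and the intermediate filament gene NES at 138 ± 12.7 (SD, n = 3). SOX10 stood at 6.75 ± 0.908 and the receptor gene KIT at 0.364 ± 0.333. TYR, TYRP1, DCT, PMEL and MLANA, also markers of this lineage, were kept out of the list and are given below.

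No pigment cell gene was called between the groups. Of the 10 genes 4 had enough reads for the edgeR test (MITF, MLPH, RAB27A and MC1R), and 0 of these passed an adjusted p of 0.05 over the 10678 genes tested, where the background is 0.112% (12 genes), 0.00937% being higher and 0.103% lower in the SOX10 libraries. At an unadjusted p under 0.05 the count was also 0 of 4, against 6.23% of all tested genes. Run on the same 4 genes, limma-voom called 0. DESeq2 called none of the 10 either, but it gave no adjusted p for MITF or GPNMB, so these could not be called by it. It leaves genes of low mean count without an adjusted p, and TYR, TYRP1, DCT, PMEL and MLANA had fewer reads still. Only MLPH, RAB27A and MC1R were thus open to a call by DESeq2. Together the 10 genes rested on 740 reads in the SOX10 libraries and 267 in the controls. GPNMB alone had every SOX10 library above every control library.

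**Figure D1:**
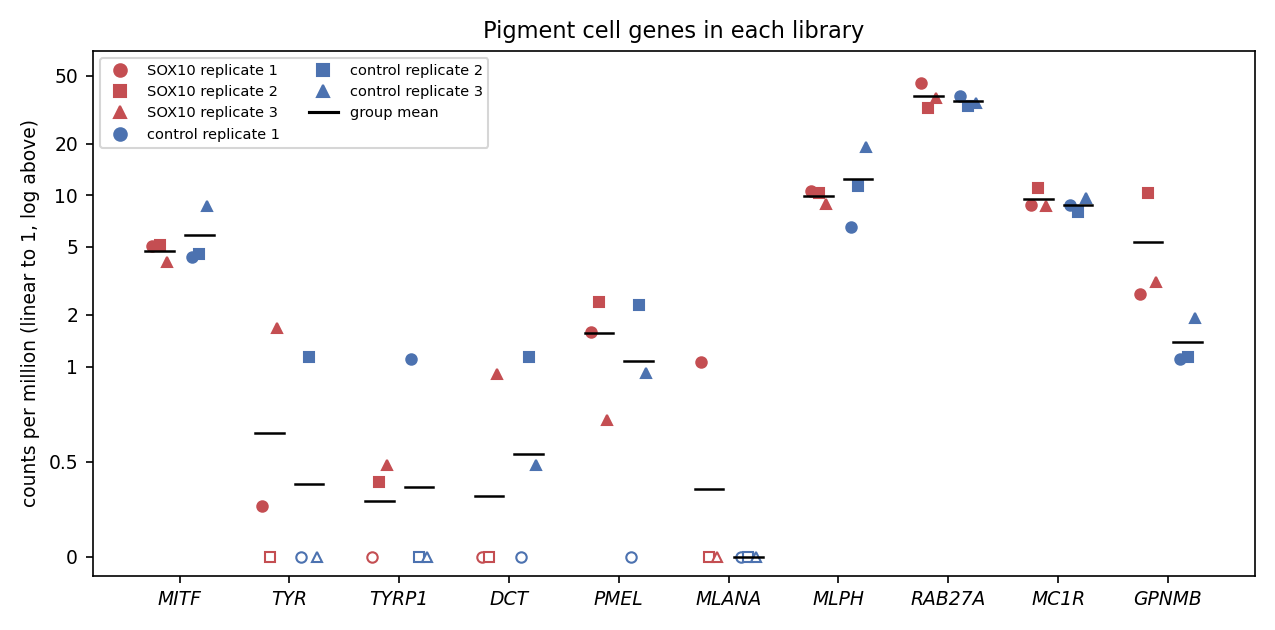
Level of each of the 10 genes in CPM (TMM-scaled, linear up to 1 and logarithmic above) in the 3 SOX10 libraries, in red, and the 3 control libraries, in blue, with symbols for replicates and a black bar for the group mean; open symbols are libraries with 0 reads. RAB27A stands highest at 32.4 to 45.4 CPM in the SOX10 libraries and 33.1 to 38.3 CPM in the controls, MLANA has reads in 1 library only, and the groups are apart only for GPNMB.

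MITF was expressed at a low level in every library. It had 19, 13 and 17 reads in the SOX10 libraries, against 4, 4 and 18 in the controls, which is 5.04, 5.14 and 4.08 CPM against 4.38, 4.57 and 8.70 CPM. The 5 other libraries lay within 4.08 to 5.14 CPM, and control replicate 3 stood above them all, so the groups overlapped. The log2 fold change was -0.44 (SE 0.46), or 0.737-fold (95% interval 0.382 to 1.42; edgeR adjusted p 0.932). Without control replicate 3 the log2 fold change was 0.078, which turns its direction. With 4 MITF reads in each of the other control libraries, changes smaller than these bounds were not detectable at this depth.

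The 3 tested genes whose pattern over the 6 libraries was most like that of MITF were IRF1, ANKRD33B and MRPL36. Their log2 levels, each centred on its own mean, differed from those of MITF by 0.0590, 0.0827 and 0.0867 on average over the 6 libraries, against a median of 0.327 over all tested genes. With 75 reads of MITF in all, this likeness rests mainly on control replicate 3, where IRF1 had 115 reads against 25 in each of the other control libraries.

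The melanin enzymes were close to absent in both groups. TYR, which carries out the first step of melanin synthesis, had 1, 0 and 7 reads in the SOX10 libraries, against 0, 1 and 0 in the controls. SOX10 replicate 3 held 7 of the 9 reads of TYR, at 1.68 CPM. TYRP1, which stabilises TYR and acts later in the pathway, had 0, 1 and 2 reads against 0 to 1 in each control library, 4 reads in all. DCT, or dopachrome tautomerase, had 0, 0 and 4 reads in the SOX10 libraries, against 0, 1 and 1 in the controls. The 4 DCT reads fell in the same library as the 7 TYR reads, SOX10 replicate 3, which was the deepest. Each of the 3 enzymes had at least 1 library at 0 in each group, so the groups overlapped. An edgeR fit with no filter on low counts called none of the 10 genes, against 0.234% of 20538 genes, and at an unadjusted p under 0.05 it held GPNMB alone of the 10, against 4.96%. In that fit the 95% interval of the log2 fold change ran from -2.48 to 4.77 for TYR, from -2.11 to 2.14 for TYRP1 and from -4.14 to 3.14 for DCT, so that differences of several fold in either direction were not detectable at this depth.

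The melanosome protein genes were also rare. PMEL had 6, 6 and 3 reads in the SOX10 libraries, against 0, 2 and 2 in the controls, or 1.59, 2.37 and 0.720 CPM against 0, 2.28 and 0.967 CPM. Its groups overlapped, and the interval without a filter ran from -1.77 to 2.84 on the log2 scale. MLANA had 4 reads, all of them in SOX10 replicate 1 at 1.06 CPM, and 0 in each of the other 5 libraries. The controls' zeros allow up to 1.45 CPM of MLANA in the deepest control library, so the 4 reads do not set the groups apart.

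GPNMB was the exception in pattern, though not in the test. It had 10, 26 and 13 reads in the SOX10 libraries, against 1, 1 and 4 in the controls, which is 2.66, 10.3 and 3.12 CPM against 1.10, 1.14 and 1.93 CPM. All 3 SOX10 libraries lay above all 3 controls, as they did for 5.73% of all tested genes and for 6.29% of the 3339 genes with 20 to 100 reads in all, and 26 of the 49 reads of the SOX10 group came from replicate 2. GPNMB fell under the main filter on low counts. In the fit of genes with at least 1 CPM in 3 libraries its log2 fold change was 1.70 (SE 0.74), or 3.26-fold with a 95% interval from 1.14 to 9.30. The edgeR adjusted p was 0.811 and the unadjusted one 0.0286. Without SOX10 replicate 2 the log2 fold change was 0.91, with an unadjusted p of 0.275 by edgeR. After thinning to 867917 reads per library GPNMB had 4, 12 and 1 reads in the SOX10 libraries, against 1, 1 and 2 in the controls, and the groups overlapped. GPNMB is also expressed by macrophages, whose markers are given below.

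The transport genes were the best measured of the 10. RAB27A, the small GTPase on the melanosome, had 171, 82 and 155 reads in the SOX10 libraries, against 35, 29 and 72 in the controls, which is 45.4, 32.4 and 37.2 CPM against 38.3, 33.1 and 34.8 CPM. SOX10 replicate 2 was the lowest of the 6 and SOX10 replicate 1 the highest, and the groups overlapped. The log2 fold change was 0.13 (SE 0.20; edgeR adjusted p 0.958), and the 95% interval of the fold ran from 0.819 to 1.45. MLPH, or melanophilin, the adaptor between RAB27A and myosin Va, had 40, 26 and 37 reads and 6, 10 and 40 reads, or 10.6, 10.3 and 8.88 CPM in the SOX10 libraries against 6.57, 11.4 and 19.3 CPM in the controls. As with MITF, control replicate 3 was the highest library, and the controls differed more among themselves than the groups did. The log2 fold change of MLPH was -0.46 (SE 0.35; edgeR adjusted p 0.927), and without control replicate 3 it was 0.14. The part of the few reads outside genes in control replicate 3 in these values was not tested. SOX10 replicate 1, which was alike in that measure, had 5.04 CPM of MITF, against 5.14 and 4.08 CPM in the other SOX10 libraries, and 10.6 CPM of MLPH, against 10.3 and 8.88 CPM.

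The receptor gene MC1R was steady over the libraries. It had 33, 28 and 36 reads in the SOX10 libraries, against 8, 7 and 20 in the controls, or 8.76, 11.1 and 8.64 CPM against 8.76, 7.99 and 9.67 CPM. Its log2 fold change was 0.066 (SE 0.36; edgeR adjusted p 0.993), with a 95% interval of the fold from 0.623 to 1.76. In GENCODE release 29, 37.7% of the exonic bases of MC1R lie in another gene on the same strand and 16.2% in one on the opposite strand, so reads of neighbouring and read-through transcripts may be among those of MC1R or may have been set aside as ambiguous, and its level is uncertain to that extent. For the other 9 genes these shares were at most 3.27%.

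**Figure D2:**
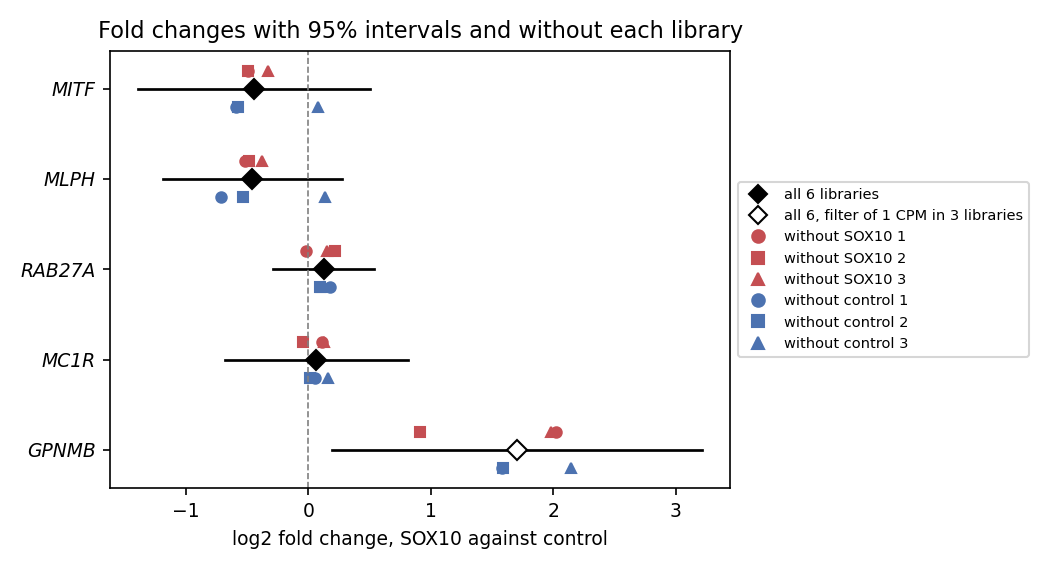
Log2 fold change of SOX10 against control with its 95% interval (diamonds and lines) for the 4 tested genes and, from the fit with a filter of 1 CPM in 3 libraries, for GPNMB (open diamond), with the value when each SOX10 library (red, above the line) or control library (blue, below the line) is left out. The intervals of MITF, MLPH, RAB27A and MC1R include 0, leaving out control replicate 3 moves MITF to 0.078 and MLPH to 0.14, and leaving out SOX10 replicate 2 moves GPNMB to 0.91.

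To set the genes beside each other, levels were divided by the length of the longest GENCODE release 29 transcript. RAB27A was the highest of the 10, at 11.1 ± 1.90 CPM per kilobase in the SOX10 libraries and 10.2 ± 0.771 in the controls (SD, n = 3 each), and in control cells it stood above 79.0% of the 21636 genes with a length. MLPH followed at 2.60 ± 0.242 and 3.25 ± 1.69, MC1R at 2.61 ± 0.376 and 2.42 ± 0.231, and MITF at 0.987 ± 0.122 and 1.22 ± 0.507 CPM per kilobase in the SOX10 and control libraries. MITF in control cells was above 50.5% of the genes with a length, of which 17114 had at least 1 control read. It was well under the median of the tested genes, 7.99 CPM per kilobase. GPNMB stood at 1.87 ± 1.49 and 0.486 ± 0.165 and PMEL at 0.261 to 0.860 and 0 to 0.828 CPM per kilobase. In control cells TYR, TYRP1 and DCT lay between 0.107 and 0.153 CPM per kilobase and MLANA at 0.

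This order was clear at its top and not at its foot. In control libraries the range of RAB27A did not overlap that of MLPH, nor MC1R that of MITF, nor MITF that of GPNMB. MLPH and MC1R overlapped, as did each neighbouring pair from GPNMB down to MLANA, and these do not differ beyond their spread. With the median transcript length in place of the longest, MITF, with its many short transcripts, moved to 4.27 CPM per kilobase and came above MC1R at 3.11, so the order of MC1R and MITF depends on the length used. The levels of the others moved as well on that length, to 46.9 CPM per kilobase for RAB27A, 14.4 for MLPH, 1.76 for GPNMB, 1.21 for PMEL, 0.463 for TYRP1, 0.263 for TYR and 0.226 for DCT in control cells.

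The known activators PAX3 and LEF1 stood above MITF in level. PAX3, its paired-domain activator, stood at 21.4 ± 1.29 CPM per kilobase in the SOX10 libraries and 19.8 ± 3.03 in the controls (SD, n = 3 each), and LEF1, which acts with beta-catenin, at 13.1 ± 0.741 and 13.5 ± 3.45. TFE3, a member of the same family as MITF that acts on lysosome genes, stood at 21.1 ± 2.85 and 24.1 ± 1.59, while the family members TFEB and TFEC were under 1 CPM per kilobase in both groups. Of the 31 regulators and partners of MITF 25 were tested, 0 were higher and 0 lower in the SOX10 libraries by edgeR, and 2 had an unadjusted p under 0.05, against 6.23% of all tested genes. The smallest p-values belonged to the SOX factor SOX9, at -0.24 (SE 0.11), the acetyltransferase EP300, at -0.22 (SE 0.10), and the Wnt effector TCF7, at 0.39 (SE 0.20), with adjusted p-values of 0.766, 0.783 and 0.839 by edgeR. The most abundant were the cofactor HINT1, SOX9 and the stress factor ATF4, at 190 ± 21.4, 110 ± 11.9 and 92.7 ± 8.60 CPM per kilobase in control cells. The median log2 fold change of the list was -0.0087, against 0.0076 over all tested genes.

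**Figure D3:**
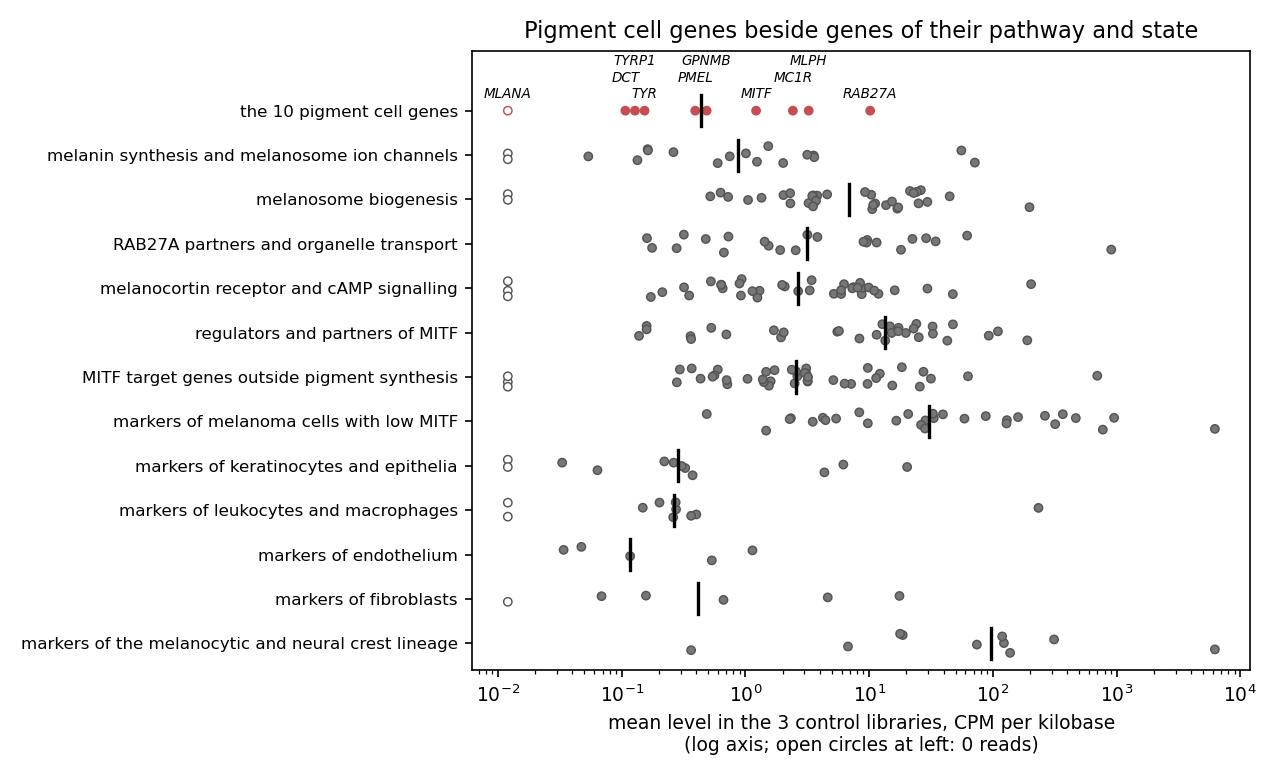
Mean level in the 3 control libraries, in CPM per kilobase on a log axis, of the 10 pigment cell genes (red, with names) and of the genes of 12 lists (grey), with a black bar for the median of each row and open circles at the left for genes with 0 reads. RAB27A lies at 10.2 and MITF at 1.22, while the markers of melanoma cells with low MITF have a median of 30.7 and the lineage markers one of 96.7.

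Markers known from melanoma cells with low MITF ranged widely in level. Their median in control cells was 30.7 CPM per kilobase, against 1.15 over all genes with a length and 7.99 over the tested genes. AXL, a receptor tyrosine kinase, stood at 83.3 ± 2.89 CPM per kilobase in the SOX10 libraries and 87.7 ± 2.64 in the controls (SD, n = 3 each), far above MITF. The most abundant of this list in control cells were vimentin (VIM) at 6243 ± 110, the AP-1 subunit FOSL1 at 956 ± 115 and fibronectin (FN1) at 775 ± 131 CPM per kilobase. Others of the list were low there, among them EGFR at 4.44 ± 1.05, WNT5A at 4.23 ± 0.652, NGFR at 2.33 ± 0.966 and INHBA at 0.487 ± 0.456 CPM per kilobase. Of its 30 genes 28 were tested, 0 were higher, and 1, the chemokine gene IL8, fell by 1.34 on the log2 scale (SE 0.22; edgeR adjusted p 0.00408). IL8 had 87.6, 121 and 60.0 CPM in the SOX10 libraries and 261, 123 and 275 CPM in the controls. Among other settings, that call was lost without control replicate 1 or 3, without SOX10 replicate 1 and control replicate 3 together and with DESeq2. The neurotrophin receptor gene NGFR had -1.94 (SE 0.54) on the log2 scale and JUN, another subunit of AP-1, -0.60 (SE 0.17), with adjusted p-values of 0.292 and 0.305. At an unadjusted p under 0.05 by edgeR stood 7 of the 28, 2 higher and 5 lower in the SOX10 libraries, against 2.71% and 3.52% of all tested genes. The 2 higher ones were the N-cadherin gene CDH2, at 0.39 (SE 0.11; edgeR adjusted p 0.333), and the matricellular protein gene CYR61, at 0.38 (SE 0.17; edgeR adjusted p 0.766), both named after their values were seen and both with groups that did not overlap, as for 11.7% of all tested genes. The 5 lower ones were IL8, NGFR, JUN, FOSL1 and EGFR. FOSL1 had -0.37 (SE 0.11) and EGFR -0.60 (SE 0.22), with adjusted p-values of 0.344 and 0.584 by edgeR, and the groups of both overlapped. The median of the list was -0.083, and 20 of the 28 had a negative log2 fold change, against 48.7% of all tested genes.

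Other genes of melanin synthesis were mostly low, with a median level of 0.880 CPM per kilobase in control cells, against 1.15 over all genes with a length. Of 18 genes for melanin synthesis and melanosome ion transport 8 were tested, 0 were higher and 0 lower, and 1 had an unadjusted p under 0.05 (6.23% of all tested genes did). GPR143, a receptor of the melanosome membrane, and CA14, a carbonic anhydrase, had 0 reads in all libraries. The transporters MFSD12 and SLC7A5, both of which also act outside pigment cells, stood at 71.6 ± 3.65 and 55.7 ± 3.77 CPM per kilobase in control cells, followed by the lysosomal potassium channel TMEM175 at 3.60 ± 1.36. The copper pump ATP7A, which loads TYR with copper, had 6.64, 16.6 and 18.7 CPM in the SOX10 libraries and 7.67, 4.57 and 6.77 CPM in the controls. SOX10 replicate 1 lay among the controls, and the log2 fold change of 1.10 (SE 0.43) had an adjusted p of 0.671 by edgeR. SLC7A5 and the cystine transporter CTNS had the next smallest p-values, at -0.17 (SE 0.11) and -0.49 (SE 0.40). The list's median was -0.092.

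The machinery that makes and moves melanosomes is in large part shared with lysosomes in other cells. Its genes ranged widely in level. Medians in control cells were 6.92 CPM per kilobase for melanosome biogenesis and 3.17 for the partners of RAB27A. Over all genes with a length the median was 1.15, and over the tested genes it was 7.99, above both lists. MUTED and VAMP7 had 0 assigned reads in all libraries. Reads aligned to more than 1 place, 17.7% to 19.1% of records, were given to no gene, and their part in these zeros was not tested. Of 34 genes of melanosome biogenesis 27 were tested, and of 23 partners of RAB27A 17, with 0 higher and 0 lower in each list by edgeR and median log2 fold changes of 0.046 and 0.094. An unadjusted p under 0.05 by edgeR was found for 1 and 2 of them, against 6.23% of all tested genes. LYST, which controls the size of lysosomes and melanosomes, had 32.9, 40.3 and 38.1 CPM in the SOX10 libraries and 52.6, 65.1 and 67.7 CPM in the controls. Its groups did not overlap, as for 11.7% of all tested genes, and the log2 fold change of -0.76 (SE 0.17) had an adjusted p of 0.125. Next by p were the adaptor subunit AP3S1 at 0.45 (SE 0.24) and the tethering subunit VPS33B at -0.76 (SE 0.47). The tetraspanin CD63, which sorts PMEL, the adaptor subunit AP3D1 and SNAPIN were the most abundant, at 198 ± 28.3, 44.8 ± 7.14 and 29.6 ± 0.979 CPM per kilobase in control cells.

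MYO5A, the myosin Va that MLPH binds, had 115, 141 and 162 CPM in the SOX10 libraries and 122, 131 and 102 CPM in the controls, a log2 difference of 0.26 (SE 0.14; edgeR adjusted p 0.862). EXPH5, an effector of RAB27, had 0.68 (SE 0.25) and MADD, an exchange factor for RAB27, -0.39 (SE 0.17), with adjusted p-values of 0.566 and 0.762. RAB7A, RAB1A and the prenyltransferase subunit RABGGTB led this list in level, at 907 ± 39.8, 62.0 ± 8.42 and 34.5 ± 5.24 CPM per kilobase in control cells. The related RAB27B stood at 0.777 ± 0.274 in the SOX10 libraries and 0.729 ± 0.474 in the controls (SD, n = 3 each), well under RAB27A.

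Around MC1R, the ligand gene POMC had 2 reads in all and the antagonist ASIP 0, while the G protein subunit gene GNAS stood at 225 ± 7.57 and 204 ± 16.2 CPM per kilobase in the SOX10 and control libraries. Of 39 genes of melanocortin and cAMP signalling 26 could be tested. EdgeR called 0 higher and 0 lower, and the median was 0.014. An unadjusted p under 0.05 was found for 1 of the 26, against 6.23% of all tested genes. The regulatory subunit PRKAR2B of protein kinase A had 134, 153 and 160 CPM in the SOX10 libraries and 117, 98.2 and 117 CPM in the controls. Its groups did not overlap, as for 11.7% of all tested genes, and the log2 difference was 0.41 (SE 0.13, edgeR adjusted p 0.393). Its relatives PRKAR2A and PRKAR1A had 0.75 (SE 0.41) and 0.22 (SE 0.13). PRKAR1A and PRKAR2B were also the most abundant after GNAS, at 47.5 ± 10.5 and 29.6 ± 2.95 CPM per kilobase in control cells.

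No known MITF target outside pigment synthesis was called. Of 43 genes 26 were tested, 0 were higher and 0 lower by edgeR, with a median of -0.028, and 4 had an unadjusted p under 0.05, all with a negative log2 fold change, against 6.23% of all tested genes in either direction and 3.52% in that one. The adhesion molecule CEACAM1 had -1.03 (SE 0.34), the growth factor receptor MET -0.94 (SE 0.33) and the microRNA processing enzyme DICER1 -0.41 (SE 0.17), with adjusted p-values of 0.474, 0.526 and 0.689. MET had 7.97, 7.51 and 8.16 CPM in the SOX10 libraries and 16.4, 18.3 and 12.6 CPM in the controls, without overlap, as for 11.7% of all tested genes. CEACAM1 had 31.9, 25.3 and 11.5 CPM against 41.6, 17.1 and 69.6 CPM and overlapped. HIF1A, APEX1 and CDK2 were the most abundant, at 699 ± 18.9, 63.0 ± 6.53 and 31.6 ± 1.71 CPM per kilobase in control cells. CDK2 overlaps 2.28% of the exonic bases of PMEL on the opposite strand, and its log2 fold change was 0.14 (SE 0.14).

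**Figure D4:**
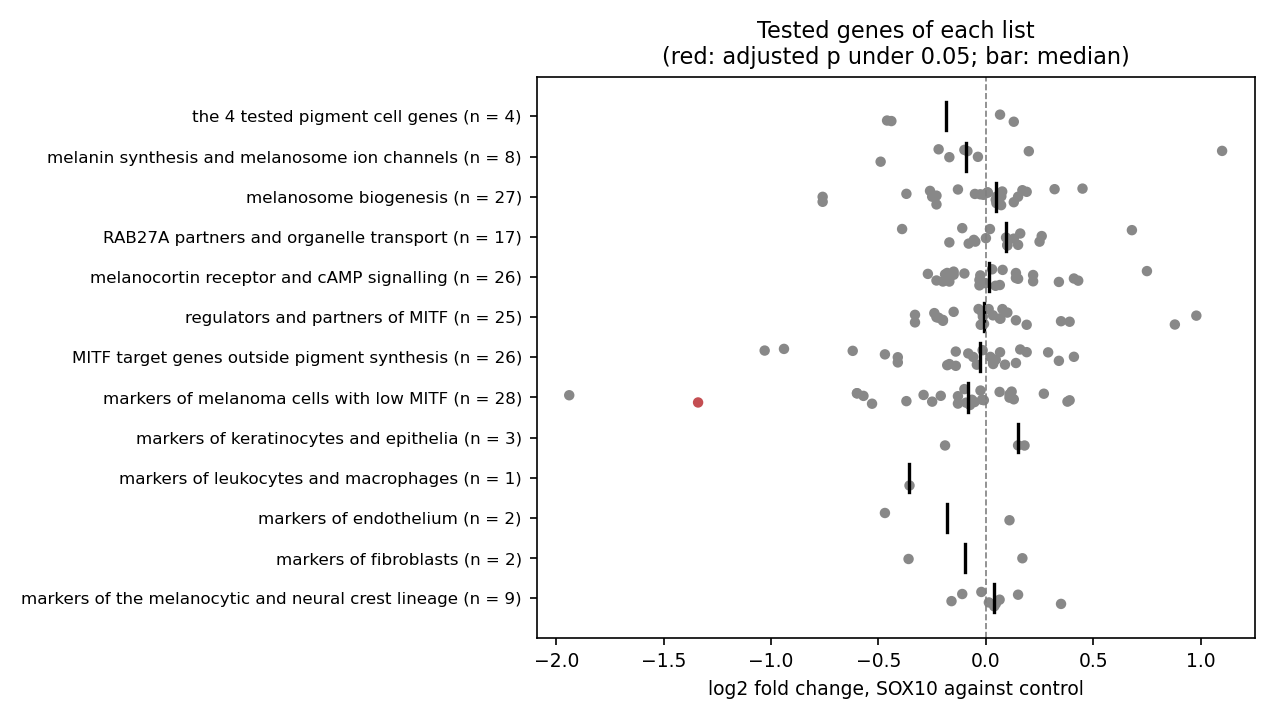
Log2 fold change of SOX10 against control for every tested gene of each list, with n tested genes beside its name and a black bar at the median; red marks an adjusted p under 0.05 by edgeR. The red point is IL8 at -1.34, the medians of the 7 pathway and state lists lie between -0.092 and 0.094, and the 4 tested pigment cell genes have a median of -0.19.

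Markers of other cells were low or were genes that tumour cells also use. The 12 markers of keratinocytes and epithelia summed to 122 to 139 CPM in the SOX10 libraries and 117 to 118 CPM in the controls, mostly from DSP and KRT18, with 3 tested and IVL and LOR at 0 reads in the controls. The 10 markers of leukocytes and macrophages summed to 198 to 489 CPM and 257 to 621 CPM, nearly all from the lysosomal protein gene CD68, the only one tested, at a log2 fold change of -0.36 (SE 0.24). CD3E had 0 reads in all libraries, and the leukocyte gene PTPRC had 2 to 10 reads in the SOX10 libraries and 1 to 4 in the controls. Beside GPNMB, the macrophage gene CD163 had 2.92, 1.58 and 2.16 CPM in the SOX10 libraries against 1.10, 2.28 and 2.42 CPM in the controls, and CSF1R 0, 0.790 and 0.480 against 3.29, 0 and 0 CPM. ITGAM, an integrin gene of myeloid cells, had 1.59, 3.16 and 0.720 CPM in the SOX10 libraries, against 0, 1.14 and 0.967 CPM in the controls. LYZ, the lysozyme gene, had 0, 1.19 and 1.44 CPM against 0 in each control, and CD14 had 0.266, 0.790 and 0.240 CPM against 0, 1.14 and 0 CPM. All 5 of these genes had too few reads to be tested and their groups overlapped. Among the SOX10 libraries ITGAM, CSF1R and CD14 were highest in replicate 2, as GPNMB was. CD163 and PTPRC were lowest there, CD68 was highest in replicate 1 and LYZ in replicate 3, so these markers shared no pattern. Endothelial markers summed to 7.44 to 21.3 CPM and 7.67 to 16.4 CPM, with 2 of 5 tested, and fibroblast markers to 106 to 177 CPM and 115 to 145 CPM, with 2 of 6 tested, mostly from PDGFRA, while LUM had 0 reads. In none of these 4 lists was a gene called by edgeR, and 0 had an unadjusted p under 0.05. Their part in the values of the pigment cell genes was not tested.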

How the data were processed

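Total RNA was sequenced from 6 libraries, 3 per group, each made from 125 ng of RNA with a NuGEN kit per the labels' protocols. Build hg19, TopHat 1.4.0, HTSeq and DESeq are listed by the submitters' processing notes; neither annotation nor strand setting is stated there. The authors deposited raw read counts per gene symbol. The 5 rows of read classes, which name no gene, were left out; reads outside genes were 39.4% to 46.9% of all records. Columns were matched to samples by title.

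The test was edgeR 4.0.16 in R 4.3.3: quasi-likelihood, two-sided, TMM scaling, filterByExpr (minimum count 10, total 15), no covariate, Benjamini-Hochberg adjustment over 10678 genes, threshold 0.05. Log2 fold changes use a prior count of 0.125, and standard errors come from the F statistic. The median SE was 0.225. The script was tested on simulated data. Alternatives were DESeq2 1.42.0, limma-voom 3.58.1, other scalings and filters, a replicate block, thinning and leaving out libraries. Lengths come from GENCODE release 29 and promoters from RefSeq (GRCh38.p14); no hg19 coordinates are given. Counts of same-group libraries were compared and none were alike within counting error (chi-square per degree of freedom 1.98 to 6.50).

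Genes named are the 10 members, SOX10, the 3 tested genes with the smallest p and the 3 most abundant of each pathway list, the most abundant markers, and the 3 genes most like MITF. POMC, ASIP, GPR143, CA14, PAX3, LEF1, TFE3, TFEB, TFEC, AXL, EGFR, WNT5A, INHBA, KIT, RAB27B, MUTED, VAMP7, CDH2, CYR61 and the low markers were named after their values were seen. The members and lists were chosen with earlier results of these data known.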

Additional observations from a re-analysis of the deposited data

How the results depend on the processing

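The count of 0 pigment cell genes called held in all 16 alternatives. A gene that a fit did not test, such as the 6 rarer genes in the main fit, was counted as not called, so this count covers only the genes each fit tested. The number of genes called in the whole table, 12, was 48 with no low-count filter, 7 under a replicate block, 7 without SOX10 replicate 1 and control replicate 3 together, and 6 to 18 without single libraries. Over the lists together 1 gene was called, IL8, and this became 3 with no low-count filter and 0 with DESeq2, with the replicate block, without that pair of libraries, and 0 to 1 without single libraries; the added calls were LYST in the melanosome biogenesis list (0 to 1) and CEACAM1 among MITF targets (0 to 1). Same-numbered libraries did not deviate together (correlations of -0.056, -0.077 and -0.30), and each SOX10 library correlated best with a control of another number (0.33, 0.12 and 0.31), so the block pairs numbers only; under it the log2 fold changes were -0.40 for MITF, -0.38 for MLPH, 0.11 for RAB27A and 0.063 for MC1R. Signs turned for MLPH (0.081) and RAB27A (-0.034) without that pair and for MC1R with limma-voom (-0.011). Without single libraries the log2 fold change ran from -0.59 to 0.078 for MITF, -0.71 to 0.14 for MLPH, -0.015 to 0.22 for RAB27A and -0.042 to 0.16 for MC1R. For GPNMB, in fits chosen after seeing the data, it ran from 0.91 to 2.15, and was 2.44 without that pair; adjusted p-values over its alternatives ran from 0.509 to 0.991. MITF was not tested after thinning or without that pair, and MC1R was not tested after thinning. Depth limits the 6 rarer genes, whose fold changes could not be bounded closely.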
